A study of Mus musculus with 18 samples.

Results

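Amino acids, GABA, taurine, creatine and the monoamines enter and leave neural cells through plasma membrane and lysosomal carriers of a few solute carrier families. The members described here are the protein-coding mouse genes whose symbols fall in the families Slc1a, Slc3a, Slc6a, Slc7a, Slc36a, Slc38a and Slc43a, without the astroglial glutamate carriers Slc1a2 and Slc1a3. The symbol rule found 53 genes among 27997 in the table. Of these, 52 are carriers or the heavy chains that carriers need, and the other one, Slc7a6os, is a gene next to Slc7a6 on the opposite strand that matches the rule by its name only. The rule used no measured value.

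RNA was sequenced in bulk from 3 adherent lines of neural stem cells (NSCs) and from astrocytes made from each of them, with 3 libraries in each of 6 groups. The tdTomato line (labelled DNGR-1 +/- Tom+/-) and the EYFP line (DNGR-1 +/- EYFP+/-) grew from spinal cord cells traced by Cre from the DNGR-1 (Clec9a) gene, and the hippocampal line (DNGR-1+/+) from GlastCre Huwe1 fl Rosa LSL EYFP mice, in which Cre acts in cells that express Glast. Whether the floxed Huwe1 allele was recombined in the culture is not given in the sources used here. By the study's methods, its mouse lines had a C57BL/6j background and mice were 6 to 14 weeks old where no other age was given. Each line is 1 culture, and its replicates came from passages 10, 11 and 12. The p-values therefore measure the spread between passages of 1 culture, and origin, genotype and line cannot be told apart. NSCs were collected after 4 days in DMEM:F12 with N-2 Max, laminin, heparin, glutamine, and EGF and bFGF at 20 ng/ml each. Astrocytes were collected after 6 days and had been kept in DMEM:F12 with BMP4 at 20 ng/ml in place of these factors, so cell fate, time and medium cannot be told apart in any comparison of the fates. In bulk RNA, fewer cells that express a gene and less of its RNA per cell cannot be told apart.

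The values are log2 expression values as deposited, normalised between libraries, so that 1 unit is a doubling. They have the form of a regularised log, in which weakly expressed genes are drawn towards their own mean over all libraries, so that differences of weak genes are understated and no set value stands for the absence of reads. Among the tested members this touches Slc1a1, Slc1a6, Slc3a1, Slc6a15, Slc6a17, Slc7a3, Slc7a4, Slc7a7, Slc7a8 and Slc43a3 most. The depth behind each value is unknown. Gene coordinates are those of GRCm38. Gfap, Aqp4 and S100b, which mark astrocytes, were higher in every astrocyte library than in any NSC library (Gfap at 8.96 to 9.44 in NSCs and 14.69 to 16.66 in astrocytes), and the proliferation marker Mki67 was at 12.75 to 13.07 in NSCs and 6.42 to 7.15 in astrocytes. The 5 NSC markers went in both directions. Sox2 (11.22 to 12.12 in NSCs and 12.47 to 13.07 in astrocytes) and Vim (15.12 to 15.35 and 15.92 to 17.64) were higher in astrocytes in each line, whereas Mki67 and Fabp7 were lower. Nes was at 10.74 to 11.19 in the astrocytes of the traced lines, below all NSC libraries, and at 13.43 to 13.80 in hippocampal astrocytes, where the difference from NSCs did not pass the test. Of 5 microglial and macrophage markers in the table, Aif1 and Ptprc lay below 0 in all 18 libraries. Tmem119, of the same list, was at 5.85 to 6.33 in tdTomato NSCs, 4.95 to 5.74 in tdTomato astrocytes and at most 4.13 in the other groups, and the linear sum of the list was 64 to 85 and 39 to 61 in the groups of the tdTomato line and 8 to 26 in the others. The part of this list in the differences between lines was not tested.

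Carriers of these families fall into a few kinds. Sodium-coupled carriers concentrate their substrate in the cell, exchangers swap one amino acid for another, and facilitators let amino acids run down their gradient. Light chains of the Slc7 family reach the membrane only when bound to a heavy chain, Slc3a1 or Slc3a2. In the brain, astrocytes take up GABA, glycine, glutamate and taurine released around synapses and pass glutamine to neurons, while dividing cells take up essential amino acids and glutamine for growth. When amino acids run short, the transcription factor ATF4 is translated and raises the transcription of several carriers, among them Slc7a1, Slc7a5, Slc3a2, Slc7a11, Slc1a4 and Slc6a9.

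ATF4 binds composite sites with C/EBP partners. The promoters of 2 members are shown because the libraries of the EYFP NSCs, described further on, differed from each other in the ATF4-linked carriers. Each run holds 250 bases before and 50 bases after the RefSeq start of the gene (GRCm38.p6, minus strand), 5′ to 3′, with matches to TGATGNAA or its reverse complement TTNCATCA in capitals.
Slc7a11 (chr3:50443564-50443863): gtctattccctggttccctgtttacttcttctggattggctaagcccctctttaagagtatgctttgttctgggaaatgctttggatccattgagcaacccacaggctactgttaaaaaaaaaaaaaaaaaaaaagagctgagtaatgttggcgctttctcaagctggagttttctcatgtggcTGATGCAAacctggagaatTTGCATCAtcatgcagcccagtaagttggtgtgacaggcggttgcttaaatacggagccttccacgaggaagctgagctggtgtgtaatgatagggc
Slc1a4 (chr11:20332664-20332963): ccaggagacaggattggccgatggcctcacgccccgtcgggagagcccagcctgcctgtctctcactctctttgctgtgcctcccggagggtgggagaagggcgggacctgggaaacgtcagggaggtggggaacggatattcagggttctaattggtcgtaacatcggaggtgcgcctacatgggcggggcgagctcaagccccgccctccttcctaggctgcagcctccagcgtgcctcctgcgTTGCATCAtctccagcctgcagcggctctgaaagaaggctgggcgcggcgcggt
The Slc7a11 promoter held a match on each strand, with first bases 66 and 47 bases before the start, and the Slc1a4 promoter held 1 match, with its first base 4 bases before the start. Among all 27025 genes with a promoter sequence, 4.51% held a match in at least 1 of their windows of this length, as did 3.97% of the 32851 windows. Promoter sequences were at hand for 38 members, of which 4 held a match (Slc1a4, Slc6a21, Slc7a11 and Slc7a7) and those of the ATF4-linked Slc7a1, Slc3a2 and Slc6a9 did not, and for 25 genes of a list of ATF4 targets, of which 10 did. The promoter of Slc7a5 was not searched. A match describes the letters of the window and shows no binding.

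Of the 53 members, 35 (34 carriers and Slc7a6os) reached a log2 value of 3.32 (a linear value of 10) in 3 or more of the 18 libraries and were tested together with all other genes that did, 15448 in all. Of the 18 members that did not, 9 stayed below 0 in every library. The highest value among the other 9 was 3.32, that of Slc36a2 in an EYFP astrocyte library. By family role, those tested were 4 of 5 glutamate and small neutral amino acid carriers, 4 of 5 GABA, taurine and creatine carriers, 3 of 10 glycine, proline and neutral amino acid carriers of the Slc6 family, 4 of 5 cationic carriers, 7 of 8 genes of the heteromeric exchangers, 2 of 3 proton-coupled carriers, 7 of 10 Slc38 carriers and 3 of 3 Slc43 carriers. None of the 3 monoamine carriers was tested. The map of the members shows these levels library by library.

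**Figure D1:**
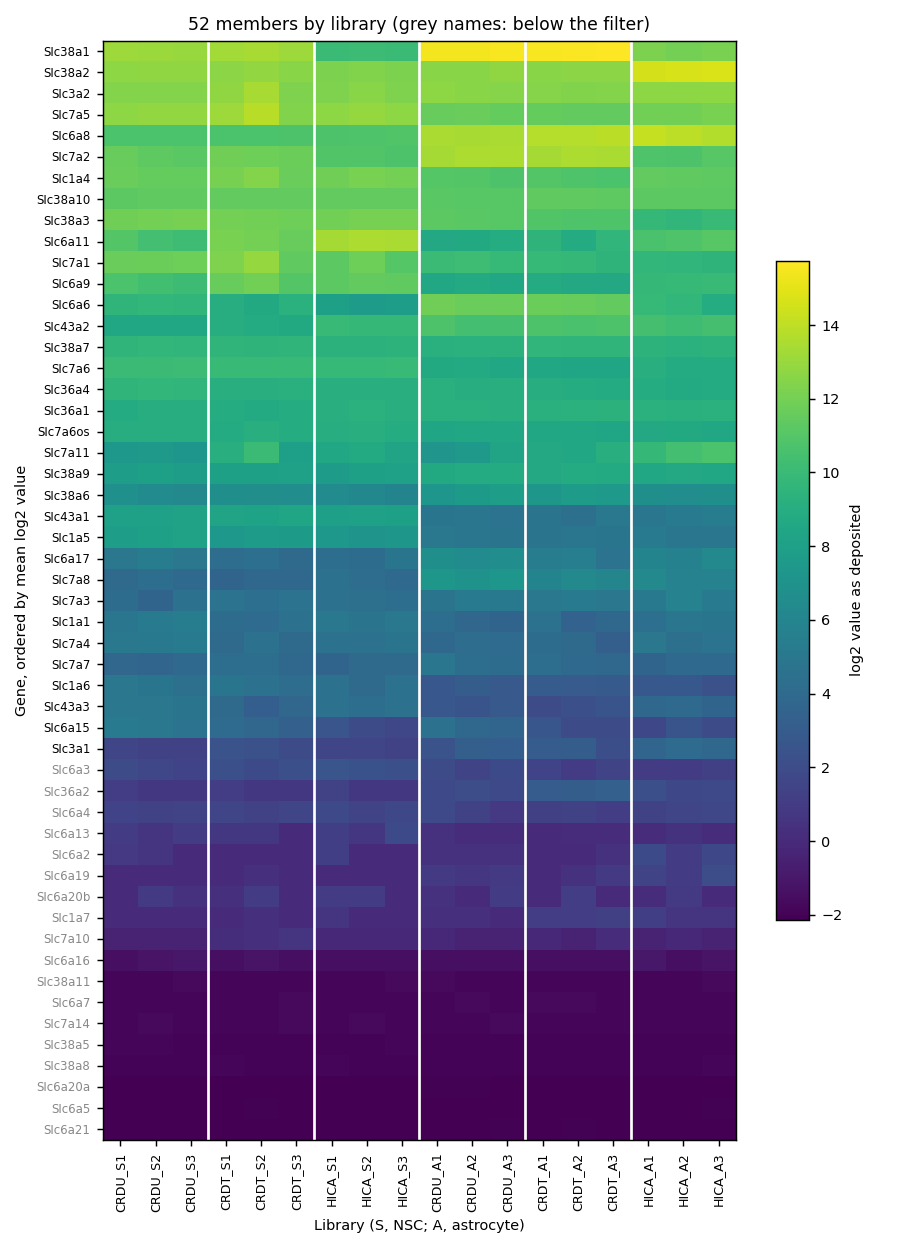
Log2 value as deposited (colour) of 52 members (rows, ordered by their mean) in the 18 libraries (columns; S, NSC; A, astrocyte; CRDU, tdTomato line; CRDT, EYFP line; HICA, hippocampal line). The 18 genes with grey names did not pass the filter, and Slc38a1, at the top, is brightest in the astrocytes of the traced lines.

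In the tdTomato line, 13 of the 35 tested members were higher in astrocytes than in NSCs and 18 were lower (limma over all genes tested, Benjamini-Hochberg, BH, adjusted p under 0.05). Among all 15448 genes, 39.9% were higher and 38.5% lower. In the EYFP line 10 members were higher and 17 lower, against 38.2% and 37% of all genes. In the hippocampal line 12 were higher and 15 lower, against 39% and 37.3%. Differences of at least 1 (log2) that passed the test were seen for 20, 19 and 16 members in the tdTomato, EYFP and hippocampal lines, where 26.8%, 24.5% and 25.6% of all genes reached that size. The 35 members had median changes of -0.22, -0.28 and -0.01, and all genes of 0.015, 0.014 and 0.017, in the same order. In each of the 3 lines, 8 members were higher in astrocytes (28.1% of all genes) and 14 lower (27.8%). The 8 were the creatine and taurine carriers Slc6a8 and Slc6a6, the sodium-coupled carrier Slc38a1, the system L genes Slc7a8 and Slc43a2, the vesicular carrier Slc6a17, and Slc38a6 and Slc38a9. The 14 were Slc1a4, Slc1a5, Slc1a6, Slc6a9, Slc6a11, Slc7a1, Slc7a5, Slc7a6, Slc38a3, Slc38a10, Slc36a4, Slc43a1, Slc43a3 and Slc7a6os. Of these, Slc1a6 passed the filter on low values through NSC libraries only, so that it had to be lower in astrocytes, and its place in these counts supports nothing. The same holds for Slc3a1 among the higher members of the hippocampal line, which passed the filter through hippocampal astrocytes only.

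**Figure D2:**
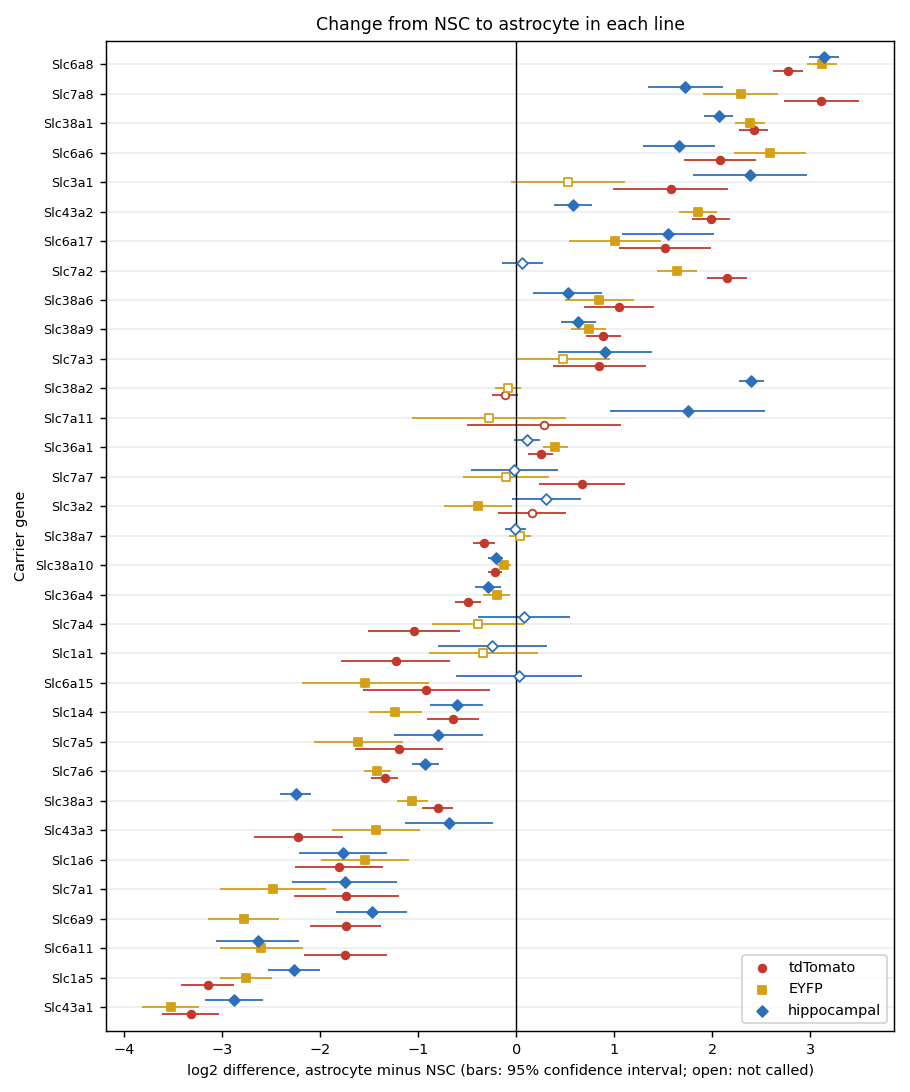
Log2 difference between astrocytes and NSCs (horizontal axis) for 33 tested carriers (vertical axis, ordered by the mean of the 3 lines) in the tdTomato (red circles), EYFP (yellow squares) and hippocampal (blue diamonds) lines, with 95% confidence intervals. Filled symbols passed the test. By the mean of the 3 lines, Slc6a8 leads the rises at 2.77 to 3.14 and Slc43a1 the falls at -3.53 to -2.88. In the tdTomato line Slc7a8 rose more than Slc6a8. Slc38a2, Slc7a2 and Slc7a11 have the hippocampal line far from the others.

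The creatine and taurine carriers rose in every line. Slc6a8, the creatine carrier (chromosome X, 73673150 to 73682502), had NSC values of 10.66, 10.69 and 10.71 in the tdTomato line, 10.66, 10.69 and 10.74 in the EYFP line and 10.78, 10.79 and 10.86 in the hippocampal line. In astrocytes, Slc6a8 was at 13.47, 13.43 and 13.47 in the tdTomato line, 13.78, 13.78 and 13.87 in the EYFP line and 14.17, 13.95 and 13.72 in the hippocampal line. All 9 astrocyte libraries lay above all 9 NSC libraries. Slc6a8 rose by 2.77, 3.12 and 3.14 in the tdTomato, EYFP and hippocampal lines (standard error 0.07, limma, BH-adjusted p = 4.5e-16, 9.4e-17 and 9.2e-17). These are 6.83-fold, 8.68-fold and 8.81-fold. Slc6a6, the taurine carrier (chromosome 6, 91684053 to 91759066), had NSC values of 9.56, 9.71 and 9.67 in the tdTomato line, 8.98, 8.75 and 9.28 in the EYFP line and 8.06, 7.66 and 7.81 in the hippocampal line. In astrocytes, Slc6a6 was at 11.86, 11.64 and 11.68 in the tdTomato line, 11.70, 11.62 and 11.45 in the EYFP line and 9.87, 9.68 and 8.96 in the hippocampal line. Within each line the fates did not overlap, but hippocampal astrocytes overlapped with tdTomato NSCs. Slc6a6 rose by 2.08, 2.59 and 1.66 in the tdTomato, EYFP and hippocampal lines (standard error 0.17, limma, BH-adjusted p = 4.4e-09, 2.4e-10 and 9.4e-08).

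Of the GABA carriers, Slc6a11 (GAT3, chromosome 6, 114131241 to 114249952), which is mainly astroglial in the brain, had NSC values of 10.97, 10.42 and 10.19 in the tdTomato line, 12.17, 12.01 and 11.56 in the EYFP line and 13.37, 13.56 and 13.50 in the hippocampal line. In astrocytes, Slc6a11 was at 8.66, 8.73 and 8.95 in the tdTomato line, 9.47, 8.84 and 9.62 in the EYFP line and 10.60, 10.84 and 11.07 in the hippocampal line. Fates did not overlap within a line, and in both fates all hippocampal libraries lay above all traced ones. It fell in each line, with log2 changes of -1.75, -2.60 and -2.64 in the tdTomato, EYFP and hippocampal lines (standard error 0.20, limma, BH-adjusted p = 3.3e-07, 1.7e-09 and 1.2e-09). Slc6a13 (GAT2), a GABA carrier of the meninges and liver, was not tested and had a highest value of 1.86.

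The glutamate and small neutral amino acid carriers had no tested member that rose. Slc1a5 (ASCT2, chromosome 7, 16781340 to 16798274), a glutamine exchanger of dividing cells, had NSC values of 7.90, 8.04 and 8.15 in the tdTomato line, 7.41, 7.71 and 7.61 in the EYFP line and 7.41, 7.11 and 7.33 in the hippocampal line. In astrocytes, Slc1a5 was at 5.03, 4.88 and 4.73 in the tdTomato line, 4.77, 4.86 and 4.81 in the EYFP line and 5.24, 4.88 and 4.91 in the hippocampal line. All astrocyte libraries lay below all NSC libraries. The changes were -3.15, -2.76 and -2.27 in the tdTomato, EYFP and hippocampal lines (standard error 0.13, limma, BH-adjusted p = 1.6e-13, 1.1e-12 and 1.4e-11), the largest 8.89-fold. Slc1a4 (ASCT1, chromosome 11, 20302180 to 20332713), an exchanger of alanine, serine and cysteine, had NSC values of 11.63, 11.52 and 11.50 in the tdTomato line, 12.06, 12.42 and 11.69 in the EYFP line and 11.84, 12.12 and 12.03 in the hippocampal line. In astrocytes, Slc1a4 was at 11.00, 10.94 and 10.76 in the tdTomato line, 10.96, 10.80 and 10.70 in the EYFP line and 11.45, 11.38 and 11.33 in the hippocampal line. Here too the fates were apart in all libraries, with the second EYFP NSC library highest. The changes were -0.65, -1.23 and -0.61 in the tdTomato, EYFP and hippocampal lines (standard error 0.13, limma, BH-adjusted p = 0.00014, 7.3e-08 and 0.00027).

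The other members of this family are excitatory amino acid carriers best known from neurons and were weak here. Slc1a6 (EAAT4, chromosome 10, 78780496 to 78814765), the carrier of Purkinje cells, had NSC values of 4.94, 4.81 and 4.44 in the tdTomato line, 4.79, 4.59 and 4.26 in the EYFP line and 4.59, 4.04 and 4.57 in the hippocampal line. In astrocytes, Slc1a6 was at 2.73, 3.13 and 2.89 in the tdTomato line, 3.10, 3.00 and 2.91 in the EYFP line and 2.79, 2.80 and 2.31 in the hippocampal line. All 9 NSC libraries were over the filter's minimum and all 9 astrocyte libraries under it, so its changes of -1.81, -1.54 and -1.77 in the tdTomato, EYFP and hippocampal lines (standard error 0.21) are given as a description, with no test. Slc1a1 (EAAC1, chromosome 19, 28835049 to 28913960), which carries glutamate and cysteine, had NSC values of 4.86, 5.16 and 5.39 in the tdTomato line, 4.21, 4.08 and 4.61 in the EYFP line and 5.03, 4.75 and 5.05 in the hippocampal line. In astrocytes, Slc1a1 was at 4.35, 3.77 and 3.60 in the tdTomato line, 4.60, 3.47 and 3.81 in the EYFP line and 4.39, 4.87 and 4.83 in the hippocampal line. Only in the tdTomato line were the fates apart. The changes were -1.23, -0.34 and -0.25 in the tdTomato, EYFP and hippocampal lines (standard error 0.26, limma, BH-adjusted p = 0.00037, 0.25 and 0.4), so that the EYFP and hippocampal lines did not pass the test. The EYFP change passed without the first EYFP astrocyte library (limma, BH-adjusted p = 0.024). Slc1a7, the carrier of the retina, was not tested. It was at 1.09 to 1.26 in EYFP astrocytes and at most 0.28 in EYFP NSCs.

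Of the 10 Slc6 carriers for glycine, proline and neutral amino acids, 3 were tested, and these moved apart. Slc6a9 (GlyT1, chromosome 4, 117834506 to 117875198), the glial glycine carrier, had NSC values of 10.65, 10.34 and 10.13 in the tdTomato line, 11.61, 11.94 and 10.98 in the EYFP line and 11.21, 11.45 and 11.35 in the hippocampal line. In astrocytes, Slc6a9 was at 8.49, 8.83 and 8.57 in the tdTomato line, 8.87, 8.67 and 8.64 in the EYFP line and 9.80, 9.83 and 9.95 in the hippocampal line. All astrocyte libraries lay below all NSC libraries, and those of the hippocampal line lay above those of the traced lines. The changes were -1.74, -2.79 and -1.48 in the tdTomato, EYFP and hippocampal lines (standard error 0.17, limma, BH-adjusted p = 4.4e-08, 7.8e-11 and 4.1e-07). Slc6a17 (NTT4, chromosome 3, 107467543 to 107518018), a carrier of neutral amino acids on vesicles, had NSC values of 4.98, 5.44 and 4.92 in the tdTomato line, 4.23, 4.36 and 4.03 in the EYFP line and 4.34, 4.16 and 4.80 in the hippocampal line. In astrocytes, Slc6a17 was at 6.80, 6.47 and 6.63 in the tdTomato line, 5.40, 5.53 and 4.70 in the EYFP line and 5.93, 5.75 and 6.28 in the hippocampal line. Fates were apart within each line, and in both fates the tdTomato line lay above the EYFP line. Slc6a17 rose by 1.52, 1.01 and 1.55 in the tdTomato, EYFP and hippocampal lines (standard error 0.22, limma, BH-adjusted p = 6.6e-06, 0.00054 and 5.2e-06). Slc6a15 (chromosome 10, 103367783 to 103419377), a carrier of branched-chain amino acids and proline, had NSC values of 5.21, 5.05 and 4.66 in the tdTomato line, 4.13, 3.78 and 3.35 in the EYFP line and 2.57, 1.97 and 1.64 in the hippocampal line. In astrocytes, Slc6a15 was at 4.57, 3.90 and 3.69 in the tdTomato line, 2.62, 1.98 and 2.02 in the EYFP line and 1.74, 2.53 and 1.99 in the hippocampal line. In NSCs all traced libraries lay above all hippocampal ones, and hippocampal libraries of both fates overlapped. The changes were -0.92, -1.54 and 0.03 in the tdTomato, EYFP and hippocampal lines (standard error 0.31, limma, BH-adjusted p = 0.011, 0.00019 and 0.94), with the hippocampal line not passing the test. Without the third tdTomato astrocyte library the tdTomato change was -0.74 and no longer passed (limma, BH-adjusted p = 0.058). The other 7, with the neuronal glycine carrier Slc6a5 and the proline carrier Slc6a7 among them, had a highest value of 2.12, that of Slc6a19 in a hippocampal astrocyte library. The monoamine carriers Slc6a2 (noradrenaline), Slc6a3 (dopamine) and Slc6a4 (serotonin) lay between 0.04 and 2.55.

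Among the cationic amino acid carriers, which bring in arginine and lysine, Slc7a1 fell in every line and Slc7a2 rose in the traced lines. Slc7a1 (CAT1, chromosome 5, 148327410 to 148399904) had NSC values of 11.69, 11.76 and 11.81 in the tdTomato line, 12.27, 12.95 and 11.37 in the EYFP line and 11.25, 11.77 and 11.06 in the hippocampal line. In astrocytes, Slc7a1 was at 10.03, 10.17 and 9.86 in the tdTomato line, 9.86, 9.78 and 9.49 in the EYFP line and 9.69, 9.64 and 9.49 in the hippocampal line. The EYFP NSC libraries spread over 1.57 and yet lay, like all other NSC libraries, above all astrocyte libraries. The changes were -1.73, -2.48 and -1.75 in the tdTomato, EYFP and hippocampal lines (standard error 0.26, limma, BH-adjusted p = 7e-06, 8.2e-08 and 6.3e-06). Slc7a2 (CAT2, chromosome 8, 40862396 to 40922308), known from liver and from cells that make nitric oxide, had NSC values of 11.58, 11.29 and 11.16 in the tdTomato line, 11.88, 11.79 and 11.72 in the EYFP line and 10.87, 10.86 and 10.73 in the hippocampal line. In astrocytes, Slc7a2 was at 13.37, 13.53 and 13.57 in the tdTomato line, 13.32, 13.53 and 13.46 in the EYFP line and 10.85, 10.72 and 11.07 in the hippocampal line. All traced astrocyte libraries lay above 13, and the hippocampal ones overlapped with their NSCs. The changes were 2.15, 1.64 and 0.06 in the tdTomato, EYFP and hippocampal lines (standard error 0.10, limma, BH-adjusted p = 9.1e-13, 4.3e-11 and 0.58), and the hippocampal interval ran from -0.14 to 0.27.

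Slc7a4 (chromosome 16, 17572018 to 17583214), a relative of these carriers, had NSC values of 5.02, 5.12 and 5.22 in the tdTomato line, 4.04, 4.56 and 4.03 in the EYFP line and 4.51, 4.63 and 4.74 in the hippocampal line. In astrocytes, Slc7a4 was at 3.84, 4.26 and 4.11 in the tdTomato line, 4.19, 4.01 and 3.26 in the EYFP line and 4.96, 4.48 and 4.67 in the hippocampal line. Fates were apart only in the tdTomato line. The changes were -1.05, -0.39 and 0.08 in the tdTomato, EYFP and hippocampal lines (standard error 0.22, limma, BH-adjusted p = 0.00034, 0.12 and 0.76), so that only the tdTomato line passed the test. The EYFP change passed without the first EYFP astrocyte library (limma, BH-adjusted p = 0.036). Slc7a3 (CAT3) lay between 3.62 and 5.78 in all libraries, with changes of 0.84, 0.48 and 0.90 in the tdTomato, EYFP and hippocampal lines (standard error 0.23, limma, BH-adjusted p = 0.0024, 0.064 and 0.0015). Its EYFP change passed without the second or the third tdTomato NSC or the second hippocampal astrocyte library (lowest BH-adjusted p = 0.034, limma). The lysosomal relative Slc7a14 stayed below 0 in all libraries.

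The heteromeric exchangers pair a light chain with a heavy chain. Slc3a2 (CD98, chromosome 19, 8706882 to 8723369), the heavy chain of most of them, lay between 12.29 and 13.40 in NSCs and between 12.36 and 12.71 in astrocytes. Its changes were 0.16, -0.39 and 0.31 in the tdTomato, EYFP and hippocampal lines (standard error 0.17, limma, BH-adjusted p = 0.38, 0.04 and 0.1). The EYFP change rested on the second EYFP NSC library, at 13.40, without which it was -0.10 (limma, BH-adjusted p = 0.38). The call was also lost when the first EYFP NSC library or any of the 3 EYFP astrocyte libraries was left out. The hippocampal change passed without the second or the third EYFP NSC library (lowest BH-adjusted p = 0.0062, limma). The light chain Slc7a5 (LAT1, chromosome 8, 121881150 to 121907694), which brings in large essential amino acids such as leucine in dividing cells, had NSC values of 12.69, 12.86 and 12.85 in the tdTomato line, 13.13, 13.83 and 12.36 in the EYFP line and 12.74, 12.92 and 12.73 in the hippocampal line. In astrocytes, Slc7a5 was at 11.62, 11.68 and 11.49 in the tdTomato line, 11.55, 11.47 and 11.46 in the EYFP line and 11.91, 11.96 and 12.13 in the hippocampal line. Every NSC library was above every astrocyte library, and the EYFP NSC libraries spread over 1.46. The changes were -1.20, -1.61 and -0.80 in the tdTomato, EYFP and hippocampal lines (standard error 0.21, limma, BH-adjusted p = 6e-05, 2.1e-06 and 0.0026).

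Slc7a8 (LAT2, chromosome 14, 54722209 to 54781946), the other light chain of system L, moved the opposite way from a low level. Its NSC values were 4.03, 4.33 and 3.99 in the tdTomato line, 3.61, 3.92 and 3.84 in the EYFP line and 4.53, 4.26 and 3.94 in the hippocampal line. In astrocytes, Slc7a8 was at 7.36, 7.05 and 7.27 in the tdTomato line, 5.96, 6.30 and 5.97 in the EYFP line and 6.30, 5.78 and 5.81 in the hippocampal line. No NSC library reached an astrocyte library, and tdTomato astrocytes were above those of the other lines. Slc7a8 rose by 3.11, 2.29 and 1.72 in the tdTomato, EYFP and hippocampal lines (standard error 0.18, limma, BH-adjusted p = 2.9e-11, 2.3e-09 and 1e-07), in the tdTomato line 8.63-fold. Slc7a5 nonetheless remained the stronger of the pair: per kb of exon sequence, its mean log2 level over the 9 astrocyte libraries was 9.81 ± 0.24 (SD, n = 9) and that of Slc7a8 4.10 ± 0.63.

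Slc7a6 (y+LAT2, chromosome 8, 106168857 to 106198706), which exchanges cationic for neutral amino acids, had NSC values of 10.02, 10.03 and 10.10 in the tdTomato line, 9.88, 9.97 and 9.96 in the EYFP line and 9.87, 9.82 and 9.89 in the hippocampal line. In astrocytes, Slc7a6 was at 8.76, 8.77 and 8.58 in the tdTomato line, 8.61, 8.48 and 8.46 in the EYFP line and 9.07, 8.85 and 8.88 in the hippocampal line. The fates were apart in all libraries. The changes were -1.34, -1.42 and -0.93 in the tdTomato, EYFP and hippocampal lines (standard error 0.07, limma, BH-adjusted p = 2.1e-12, 1.1e-12 and 3.5e-10). Its neighbour Slc7a6os, which is no carrier and lies 2.0 kb away on the opposite strand, changed by -0.48, -0.45 and -0.33 in the tdTomato, EYFP and hippocampal lines (standard error 0.07, limma, BH-adjusted p = 4e-06, 1.1e-05 and 3e-04). Slc7a7 (y+LAT1) lay between 3.60 and 4.91, with changes of 0.67, -0.11 and -0.02 in the tdTomato, EYFP and hippocampal lines (standard error 0.21, limma, BH-adjusted p = 0.0074, 0.65 and 0.93). Its tdTomato change was 0.45 without the first tdTomato astrocyte library and no longer passed (limma, BH-adjusted p = 0.058). Slc7a10, a carrier of small neutral amino acids and D-serine, was not tested and had a highest value of 0.65.

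Slc7a11 (xCT, chromosome 3, 49892526 to 50443614) takes up cystine in exchange for glutamate and feeds glutathione synthesis. It is the gene whose promoter with 2 motif matches is printed above. Its NSC values were 7.41, 7.45 and 7.25 in the tdTomato line, 9.09, 10.03 and 7.93 in the EYFP line and 8.49, 8.77 and 8.33 in the hippocampal line. In astrocytes, Slc7a11 was at 7.17, 7.51 and 8.29 in the tdTomato line, 8.64, 8.5 and 9.05 in the EYFP line and 9.79, 10.39 and 10.65 in the hippocampal line. Hippocampal astrocytes lay above all NSCs of their line and above the astrocytes of the other lines, while the fates overlapped in both traced lines. The changes were 0.28, -0.28 and 1.75 in the tdTomato, EYFP and hippocampal lines (standard error 0.37, limma, BH-adjusted p = 0.5, 0.51 and 0.00038). The EYFP change depended on single NSC libraries: it was -0.82 and passed the test without the third (limma, BH-adjusted p = 0.023) and was 0.22 without the second (BH-adjusted p = 0.55).

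Slc3a1 (rBAT, chromosome 17, 85028376 to 85064236), the heavy chain best known from kidney, was weak and reached the filter's minimum in the 3 hippocampal astrocyte libraries only, so it had to be higher there, and its values in that group are given as a description, with no test. Its NSC values were 1.61, 1.30 and 1.31 in the tdTomato line, 2.42, 2.27 and 2.02 in the EYFP line and 1.62, 1.63 and 1.29 in the hippocampal line. In astrocytes, Slc3a1 was at 2.44, 3.27 and 3.22 in the tdTomato line, 3.04, 3.11 and 2.14 in the EYFP line and 3.67, 4.11 and 3.90 in the hippocampal line. Hippocampal astrocytes were the highest of all libraries, and fates overlapped in the EYFP line. The changes were 1.57 and 0.53 in the tdTomato and EYFP lines (standard error 0.28, limma, BH-adjusted p = 5e-05 and 0.092) and 2.38 in the hippocampal line. Without the third EYFP astrocyte library the EYFP change passed as well (limma, BH-adjusted p = 0.0092).

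Slc38 carriers move glutamine and other small neutral amino acids, with sodium at the plasma membrane or out of lysosomes. Slc38a1 (SNAT1, chromosome 15, 96571418 to 96642913) had NSC values of 13.10, 13.07 and 13.02 in the tdTomato line, 13.28, 13.42 and 13.11 in the EYFP line and 10.06, 10.10 and 10.04 in the hippocampal line. In astrocytes, Slc38a1 was at 15.46, 15.41 and 15.57 in the tdTomato line, 15.60, 15.62 and 15.75 in the EYFP line and 12.25, 12.01 and 12.13 in the hippocampal line. Fates were apart within each line, yet the hippocampal line in either fate stayed below the NSCs of the traced lines. Slc38a1 rose by 2.42, 2.38 and 2.06 in the tdTomato, EYFP and hippocampal lines (standard error 0.07, limma, BH-adjusted p = 2.4e-15, 3e-15 and 1.7e-14). Slc38a2 (SNAT2, chromosome 15, 96687392 to 96699730), a glutamine and alanine carrier that responds to amino acid supply and lies 44.5 kb from Slc38a1 on the same strand with no other protein-coding gene of the table between, had NSC values of 12.69, 12.81 and 12.78 in the tdTomato line, 12.67, 12.84 and 12.58 in the EYFP line and 12.22, 12.37 and 12.25 in the hippocampal line. In astrocytes, Slc38a2 was at 12.59, 12.59 and 12.75 in the tdTomato line, 12.60, 12.61 and 12.63 in the EYFP line and 14.63, 14.69 and 14.72 in the hippocampal line. Only the hippocampal astrocytes stood out, above all other libraries. The changes were -0.12, -0.08 and 2.40 in the tdTomato, EYFP and hippocampal lines (standard error 0.06, limma, BH-adjusted p = 0.096, 0.22 and 3.8e-16). In the traced lines the intervals ran from -0.24 to 0.02 and from -0.21 to 0.05. Without the third tdTomato astrocyte library the tdTomato change passed, and without the third EYFP NSC library the EYFP change (limma, BH-adjusted p = 0.026 and 0.047).

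Slc38a3 (SNAT3, chromosome 9, 107650634 to 107669530), which can release glutamine from astrocytes, had NSC values of 11.89, 12.01 and 12.06 in the tdTomato line, 11.98, 11.91 and 11.81 in the EYFP line and 11.94, 12.11 and 12.06 in the hippocampal line. In astrocytes, Slc38a3 was at 11.26, 11.18 and 11.11 in the tdTomato line, 10.88, 10.81 and 10.82 in the EYFP line and 9.78, 9.61 and 9.96 in the hippocampal line. All astrocyte libraries lay below all NSC libraries, lowest in the hippocampal line. The changes were -0.81, -1.06 and -2.25 in the tdTomato, EYFP and hippocampal lines (standard error 0.07, limma, BH-adjusted p = 1.4e-08, 3.4e-10 and 8.6e-15). Slc38a6 (chromosome 12, 73286779 to 73354049) had NSC values of 6.87, 6.48 and 6.25 in the tdTomato line, 6.74, 6.73 and 6.65 in the EYFP line and 6.47, 6.23 and 5.96 in the hippocampal line. In astrocytes, Slc38a6 was at 7.26, 7.61 and 7.88 in the tdTomato line, 7.36, 7.74 and 7.57 in the EYFP line and 6.80, 6.65 and 6.78 in the hippocampal line. Fates were apart within each line by a small gap. Slc38a6 rose by 1.05, 0.85 and 0.52 in the tdTomato, EYFP and hippocampal lines (standard error 0.17, limma, BH-adjusted p = 1.9e-05, 2e-04 and 0.0095). Without the third hippocampal NSC library the hippocampal change was 0.39 and did not pass (limma, BH-adjusted p = 0.06).

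Of the lysosomal members, Slc38a9, which senses arginine for mTORC1, lay between 7.78 and 8.90 and rose by 0.89, 0.74 and 0.63 in the tdTomato, EYFP and hippocampal lines (standard error 0.09, limma, BH-adjusted p = 2.6e-08, 3.4e-07 and 2.2e-06). Slc38a7, a lysosomal glutamine carrier, lay between 9.23 and 9.68 and fell in the tdTomato line only, with changes of -0.33, 0.04 and -0.01 in the tdTomato, EYFP and hippocampal lines (standard error 0.05, limma, BH-adjusted p = 1.3e-05, 0.54 and 0.87). Slc38a10, at 11.09 to 11.48, was the member of this family that changed least where it passed the test, with changes of -0.22, -0.13 and -0.21 in the tdTomato, EYFP and hippocampal lines (standard error 0.04, limma, BH-adjusted p = 1.8e-05, 0.0036 and 2.9e-05). Slc38a5, Slc38a8 and Slc38a11 stayed below 0 in all libraries. The proton-coupled carrier Slc36a1 (PAT1), which exports amino acids from lysosomes, lay between 8.80 and 9.34, with changes of 0.25, 0.40 and 0.11 in the tdTomato, EYFP and hippocampal lines (standard error 0.06, limma, BH-adjusted p = 0.0012, 1.2e-05 and 0.11). The hippocampal change passed without the second hippocampal NSC library (limma, BH-adjusted p = 0.035). Slc36a4 (PAT4) lay between 8.77 and 9.68, with changes of -0.50, -0.20 and -0.29 in the tdTomato, EYFP and hippocampal lines (standard error 0.06, limma, BH-adjusted p = 1.1e-06, 0.0076 and 0.00042). Slc36a2 was not tested.

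Among the Slc43 facilitators, Slc43a1 and Slc43a3 fell and Slc43a2 rose in each line. Slc43a1 (LAT3, chromosome 2, 84838850 to 84863594), a facilitator of large neutral amino acids, had NSC values of 8.11, 8.08 and 8.14 in the tdTomato line, 8.28, 8.21 and 8.35 in the EYFP line and 7.97, 8.07 and 8.0 in the hippocampal line. In astrocytes, Slc43a1 was at 4.83, 4.87 and 4.65 in the tdTomato line, 4.77, 4.48 and 5.01 in the EYFP line and 4.85, 5.13 and 5.42 in the hippocampal line. All astrocyte libraries lay below all NSC libraries. The changes were -3.33, -3.53 and -2.88 in the tdTomato, EYFP and hippocampal lines (standard error 0.14, limma, BH-adjusted p = 2.6e-13, 1.2e-13 and 1.7e-12), or 10-fold, 11.5-fold and 7.37-fold lower. Slc43a2 (LAT4, chromosome 11, 75531694 to 75577575), the other facilitator of these amino acids, had NSC values of 8.53, 8.60 and 8.59 in the tdTomato line, 8.99, 8.85 and 8.71 in the EYFP line and 9.92, 9.79 and 9.75 in the hippocampal line. In astrocytes, Slc43a2 was at 10.78, 10.42 and 10.47 in the tdTomato line, 10.77, 10.62 and 10.73 in the EYFP line and 10.50, 10.22 and 10.46 in the hippocampal line. All astrocyte libraries were above all NSC libraries, and the NSCs of the hippocampal line were nearest to them. Slc43a2 rose by 1.98, 1.86 and 0.57 in the tdTomato, EYFP and hippocampal lines (standard error 0.09, limma, BH-adjusted p = 1.3e-12, 3.3e-12 and 1.9e-05). Slc43a3 (chromosome 2, 84936579 to 84958509), which carries purine nucleobases and not amino acids, had NSC values of 4.97, 4.98 and 4.74 in the tdTomato line, 4.01, 3.22 and 3.78 in the EYFP line and 4.54, 4.31 and 4.63 in the hippocampal line. In astrocytes, Slc43a3 was at 2.69, 2.49 and 2.85 in the tdTomato line, 1.92, 2.26 and 2.52 in the EYFP line and 3.82, 3.96 and 3.64 in the hippocampal line. Fates were apart within each line. The changes were -2.22, -1.44 and -0.69 in the tdTomato, EYFP and hippocampal lines (standard error 0.21, limma, BH-adjusted p = 2.8e-08, 8.1e-06 and 0.0072).

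Levels of different genes were compared per kb of exon sequence, as the log2 value minus the log2 of the exon length in kb, given as the mean ± SD over the 9 libraries of a fate. In NSCs the order of these means was led by Slc7a5 at 11.01 ± 0.40, followed by its partner Slc3a2 at 10.73 ± 0.36. Both genes come from the same libraries, so these SDs are not the spread of the difference between them, which was not tested. Their order held in tdTomato and EYFP NSCs, whereas in hippocampal NSCs Slc6a11 led at 11.14, with Slc7a5 at 10.91 ranked 2 and Slc3a2 at 10.57 ranked 4. Slc6a11 ranked 11 in tdTomato NSCs, at 8.19, and 4 in EYFP NSCs, at 9.58, so its mean of 9.64 ± 1.3 stands for no single line. Slc1a4 was at 9.89 ± 0.31. In astrocytes Slc6a8 led at 11.36 ± 0.25, having ranked 10 in NSCs at 8.35 ± 0.07. It was followed by Slc3a2 at 10.75 ± 0.13, Slc38a1 at 10.32 ± 1.72, Slc38a2 at 10.17 ± 1.03 and Slc7a5 at 9.81 ± 0.24. The wide spread of Slc38a1 and Slc38a2 came from the lines: Slc38a1 was at 11.37, 11.55 and 8.03 in tdTomato, EYFP and hippocampal astrocytes and Slc38a2 at 9.50, 9.47 and 11.53. Slc38a1 thus ranked 1 in the traced lines and 9 in the hippocampal line, and Slc38a2 ranked 6 and 2.

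The next comparison asks where the hippocampal line differed from the mean of the traced lines in each fate. In NSCs, 4 of the 35 members were higher and 10 lower in the hippocampal line, against 14.9% and 17% of all genes, and 6 had log2 differences of 1 or more, where 4.61% of all genes did. In astrocytes, 15 were higher (31.9% of all genes) and 10 lower (27.9%), and 11 differed by at least 1 (11.4%). Slc3a1 among the higher and Slc6a15 among the lower members passed the filter through the side on which they are high, so neither supports these counts. Markers of ependymal cells were also higher in hippocampal astrocytes. Foxj1 was at 12.11 to 12.28 there and at 10.97 to 11.32 in the astrocytes of the traced lines, Ccdc153 at 5.65 to 6.02 and 2.34 to 3.11, and the linear sum of these 2, of 3 markers listed, at 4485 to 5031 and 2014 to 2563. The sum of 3 choroid plexus markers was 58 to 78 and 21 to 49, with Ttr below 0 in all libraries. Of 6 astrocyte markers 4 were higher and none lower, with a list sum of 212425 to 241653 against 120647 to 180559, and of 5 NSC markers 3 were higher and 1 lower, with a sum of 192750 to 239284 against 84568 to 100356. The neuron list was lower, and the oligodendrocyte and fibroblast lists were mixed. The 3 tested neuron markers were all lower, with a list sum of 229 to 272 against 380 to 551, and the sum of the oligodendrocyte lineage list was 1422 to 1540 against 2018 to 3036, with 2 of 4 tested markers higher and 2 lower. Of 4 tested markers of fibroblasts, meninges and pericytes, Foxc1 was higher (9.24 to 9.53 against 8.05 to 8.64) and 2 were lower. The linear sum of that list was higher, at 682 to 807 against 351 to 504. The part of these lists in the differences was not tested. The median difference of the members was -0.11 in NSCs and 0.14 in astrocytes, and that of all genes -0.01 and 0.01. The plot of the hippocampal line against the traced lines shows 33 of the carriers.

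Slc38a1 differed most. It was lower in the hippocampal line, with log2 differences of -3.10 in NSCs and -3.44 in astrocytes (standard error 0.06, limma, BH-adjusted p = 3.9e-17 and 9.5e-18), which is 8.56-fold and 10.8-fold. Its neighbour Slc38a2 differed by -0.45 (standard error 0.05, limma, BH-adjusted p = 3.4e-06) in NSCs and by 2.05 (standard error 0.05, limma, BH-adjusted p = 1.7e-15) in astrocytes. In astrocytes these adjacent genes, both sodium-coupled glutamine carriers, therefore differed in opposite directions, with no overlap of hippocampal and traced libraries in either gene.

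The GABA carrier Slc6a11 was higher in the hippocampal line. It exceeded the traced lines by 2.25 (standard error 0.17, limma, BH-adjusted p = 1.4e-08) in NSCs and by 1.79 (standard error 0.17, limma, BH-adjusted p = 8.8e-08) in astrocytes. Between these lines astrocyte markers differed in the same direction. Of 6, 3 were higher and none lower in hippocampal NSCs, with a list sum of 66539 to 67530 against 31433 to 52633 in traced NSCs, and the astrocyte values are those given above. From NSCs to astrocytes, all 6 rose in each line, whereas Slc6a11 fell. The part of the markers in the difference was not tested.

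Lower in the hippocampal line in both fates were the taurine carrier Slc6a6 and the branched-chain amino acid carrier Slc6a15. Slc6a6 differed by -1.48 (standard error 0.15, limma, BH-adjusted p = 4.9e-07) in NSCs and -2.16 (standard error 0.15, limma, BH-adjusted p = 1.1e-09) in astrocytes. Slc6a15 was under the filter's minimum in all 6 hippocampal libraries and passed it through the traced lines, so its differences of -2.30 (standard error 0.27) in NSCs and -1.05 (standard error 0.27) in astrocytes are a description, with no test. Slc7a2 was also lower in both, differing by -0.75 (standard error 0.08, limma, BH-adjusted p = 1.7e-06) in NSCs and by -2.58 (standard error 0.08, limma, BH-adjusted p = 4.1e-14) in astrocytes, the latter 5.98-fold. Slc43a2 was higher in hippocampal NSCs, at 1.11 (standard error 0.08, limma, BH-adjusted p = 5e-09), and in astrocytes the difference was -0.24 (standard error 0.08, limma, BH-adjusted p = 0.016). Without the second hippocampal astrocyte library, that last difference was -0.15 and did not pass (limma, BH-adjusted p = 0.15).

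A further 5 members differed by at least 1 in astrocytes. Slc7a11 was higher by 2.08 (standard error 0.32, limma, BH-adjusted p = 2.5e-05), Slc43a3 by 1.35 (standard error 0.18, limma, BH-adjusted p = 5.8e-06) and Slc6a9 by 1.18 (standard error 0.15, limma, BH-adjusted p = 2.3e-06). Slc3a1, for which the filter leaves no test, had a difference of 1.02 (standard error 0.24). Slc38a3 was lower, with a difference of -1.23 (standard error 0.06, limma, BH-adjusted p = 2e-11). In NSCs these 5 had differences of 0.34, 0.21, 0.39, -0.31 and 0.10, none of which passed the test (limma, BH-adjusted p = 0.48, 0.44, 0.054, 0.37 and 0.28). The Slc6a9 difference in NSCs passed when the second EYFP or the first tdTomato NSC library was left out (lowest BH-adjusted p = 0.0067, limma).

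**Figure D3:**
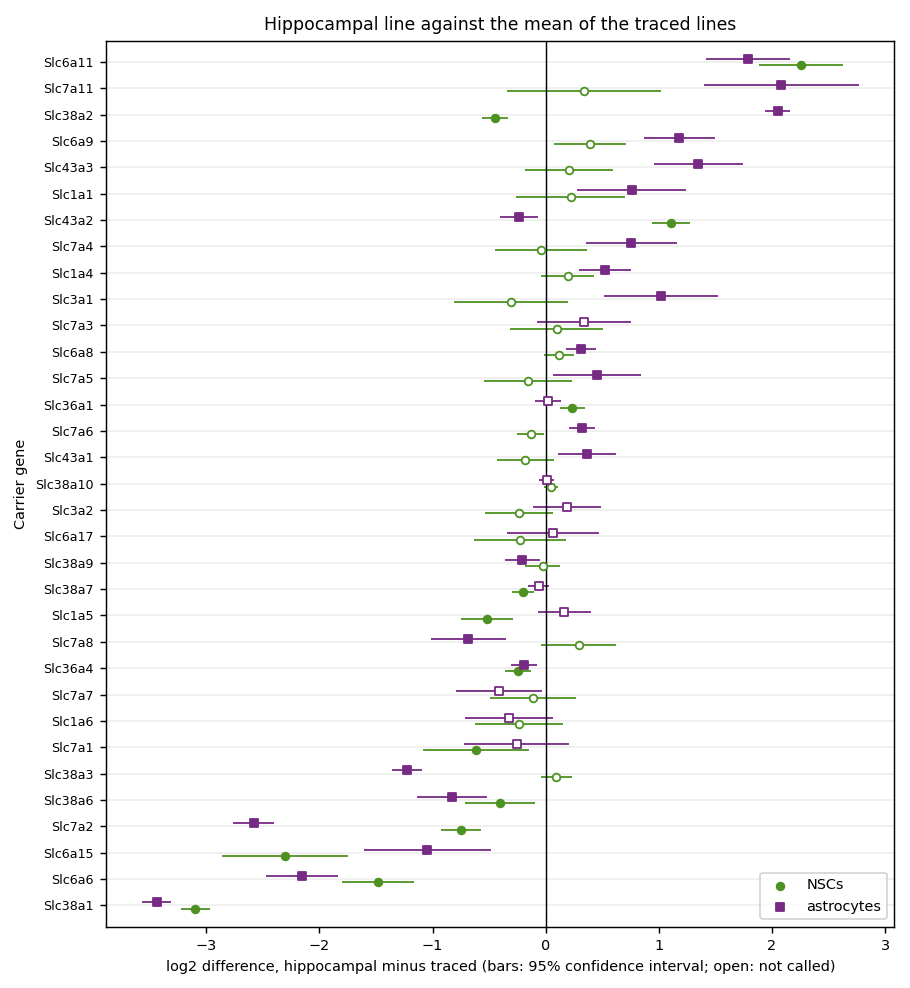
Log2 difference between the hippocampal line and the mean of the traced lines (horizontal axis) for 33 tested carriers (vertical axis, ordered by the mean of both fates) in NSCs (green circles) and astrocytes (purple squares), with 95% confidence intervals and filled symbols for those that passed the test. Slc38a1 is at the bottom in both fates (-3.10 and -3.44), and Slc38a2 and Slc7a11 are near 2 in astrocytes and within 0.5 of 0 in NSCs.

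Whether the change from NSC to astrocyte itself differed between the hippocampal line and the traced lines was tested as an interaction, the hippocampal change minus the mean of the traced changes. It shares its libraries with the comparisons above. It was above 0 for 10 members (25.9% of all genes) and below 0 for 8 (20.3%), with 9 members of at least 1 in either direction, where 10.2% of all genes reached that size. The median was 0.19 over the members and 0.03 over all genes. Slc38a2 had the largest, 2.5 (standard error 0.08, limma, BH-adjusted p = 2e-13), followed by -1.83 (standard error 0.12, limma, BH-adjusted p = 1.9e-09) for Slc7a2 and 1.75 (standard error 0.46, limma, BH-adjusted p = 0.0046) for Slc7a11. Slc43a2 (-1.35) and Slc38a3 (-1.32) were on the negative side, and Slc3a1 (1.33), Slc6a15 (1.26) and Slc43a3 (1.14) on the positive side (limma, BH-adjusted p = 3.7e-08 for Slc43a2, 3e-09 for Slc38a3 and 0.0016 for Slc43a3). No p is given for Slc3a1 and Slc6a15, which passed the filter through the groups where they are high, so their places in these counts support nothing. In the plot of single libraries the opposite positions of Slc38a1 and Slc38a2 in hippocampal astrocytes, and the flat level of Slc7a2 in that line, can be read directly.

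**Figure D4:**
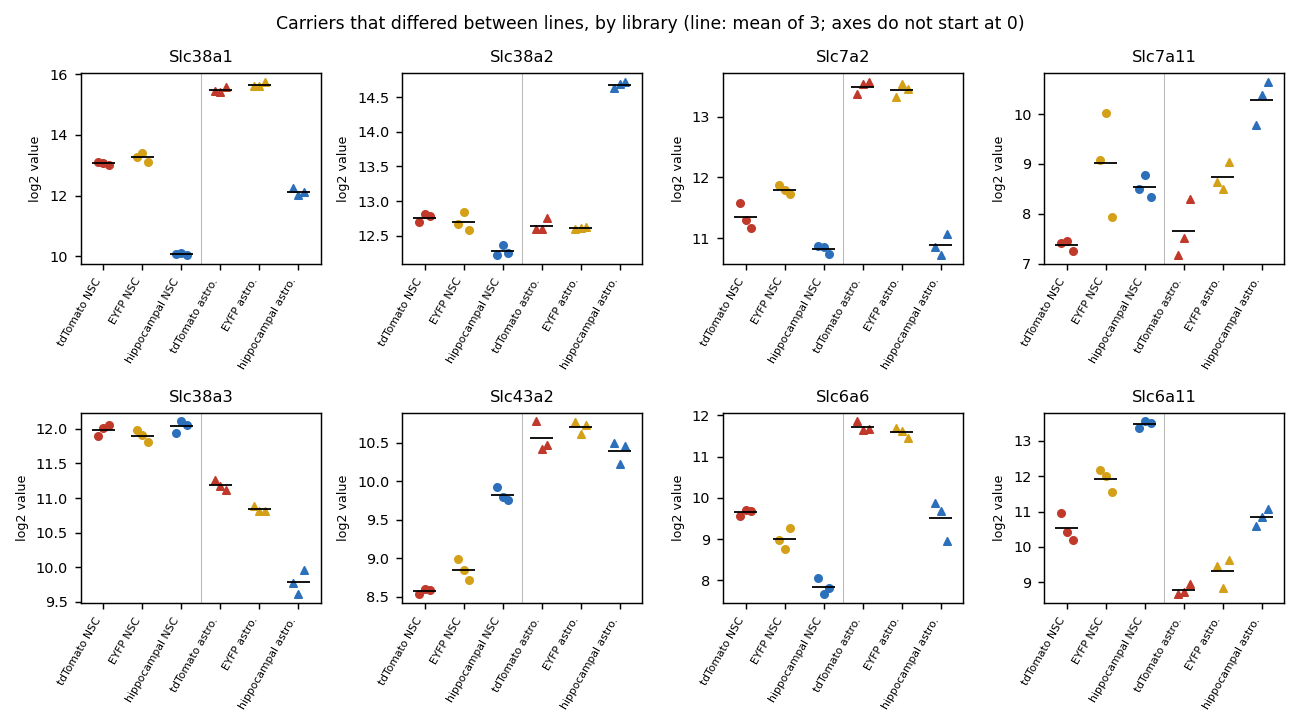
Log2 value (vertical axes, which do not start at 0) of 8 carriers in the 3 libraries of each group (points; circles, NSCs; triangles, astrocytes) with the group mean (black line), in the tdTomato (red), EYFP (yellow) and hippocampal (blue) lines. Hippocampal astrocytes are the highest group for Slc38a2 (14.63 to 14.72) and Slc7a11 (9.79 to 10.65) and the lowest for Slc38a3 (9.61 to 9.96), and for Slc7a2 they stay at the level of their NSCs.

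The lines traced from spinal cord also differed from each other. In NSCs, 8 members were higher in the tdTomato than in the EYFP line (16.4% of all genes) and 9 were lower (14.9%), and 5 of these 17 differed by at least 1, a size that 3% of all genes reached. The cystine carrier Slc7a11 was lower in tdTomato NSCs, with a difference of -1.64 (standard error 0.37, limma, BH-adjusted p = 0.003). The GABA carrier Slc6a11, at -1.39 (standard error 0.20, limma, BH-adjusted p = 6.2e-05), and the glycine carrier Slc6a9, at -1.14 (standard error 0.17, limma, BH-adjusted p = 9.8e-05), were lower as well. Beside them, 3 of 6 astrocyte markers were lower in tdTomato NSCs and 1 higher, with a list sum of 31433 to 39321 against 46288 to 52633 (Aqp4 at no more than 8.38 against 9.31 to 9.87), and the ependymal marker Foxj1 was at 9.41 to 9.76 against 10.25 to 10.31. The part of these markers was not tested. Slc43a3 was higher by 1.23 (standard error 0.21, limma, BH-adjusted p = 0.00033) and Slc6a15 by 1.22 (standard error 0.31, limma, BH-adjusted p = 0.006). Without the second EYFP NSC library, 12 members differed in place of 17, and the 5 differences were -1.14, -1.34, -0.92, 1.00 and 1.24 in that order (limma, BH-adjusted p between 0.00054 and 0.019). In astrocytes, 5 members were higher in the tdTomato line (7.06% of all genes) and 3 lower (7.31%), and 3 differed by at least 1 (2.25%). These were Slc6a15 at 1.84 (standard error 0.31, limma, BH-adjusted p = 0.00039), Slc6a17 at 1.42 (standard error 0.22, limma, BH-adjusted p = 0.00022) and Slc7a8 at 1.15 (standard error 0.18, limma, BH-adjusted p = 0.00024). Slc7a11, at -1.08, did not pass with all libraries but did without the second EYFP NSC library (limma, BH-adjusted p = 0.019). Neuron markers summed to 485 to 551 in tdTomato and 380 to 415 in EYFP astrocytes, and oligodendrocyte lineage markers to 2801 to 3036 and 2018 to 2420. The fibroblast list summed to 481 to 504 and 351 to 409. Lower in tdTomato astrocytes were the sums of the astrocyte list (120647 to 145421 against 146981 to 180559) and the NSC list (84568 to 91126 against 92069 to 100356). The part of these lists was not tested. The median of the members was -0.01 in NSCs and 0.06 in astrocytes, and that of all genes 0.012 and -0.002.

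The change from NSC to astrocyte differed between the tdTomato and the EYFP line for 7 members, 4 above 0 (6.36% of all genes) and 3 below (6.98%). The median was 0.20 over the members and -0.01 over all genes. Only Slc6a9 reached 1 (2.4% of all genes), with 1.04 (standard error 0.24, limma, BH-adjusted p = 0.0094). The count rested on single libraries: it was 2 without the third tdTomato NSC library and 12 without the third EYFP NSC library. It was 3 without the second tdTomato, the first EYFP or the second EYFP NSC library or the third tdTomato astrocyte library, and 4 without the second tdTomato or the first EYFP astrocyte library.

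The EYFP NSC libraries were far apart in some carriers. Of the 35 members, 4 (11.4%) had a range of at least 1 over the 3 EYFP NSC libraries, where 2.31% of all genes did, and none did in tdTomato or hippocampal NSCs or in hippocampal astrocytes, where 1.92%, 1.81% and 3.38% of all genes did. In tdTomato astrocytes Slc7a11, and in EYFP astrocytes Slc1a1, had such a range, of 1.13 and 1.12, against 2.91% and 2.85% of all genes. The 4 in EYFP NSCs were Slc7a11 with 2.10, Slc7a1 with 1.57, Slc7a5 with 1.46 and Slc3a2 with 1.12, and Slc6a9 followed with 0.96. All 5, and Slc1a4 with 0.73, were highest in the second library and lowest in the third. These 6 are the carriers named above as known targets of ATF4, but they were named with these values known, so their match with that pattern supports nothing. Slc38a2 and Slc1a5, which are also known to respond to ATF4, had ranges of 0.26 and 0.30. Slc43a3 with 0.80, lowest in the second library, and Slc6a15 with 0.78, highest in the first, varied as much as Slc1a4 in another order. In a list of 29 tested ATF4 targets that holds no carrier, 27 genes were highest in the same library, against 31.8% of all genes, and the 29 genes averaged 10.76, 11.25 and 10.21 in the 3 libraries. Asns, which makes asparagine, was at 11.62, 12.41 and 10.63, and Chac1, which degrades glutathione, at 8.42, 9.32 and 6.97. In hippocampal NSCs, 27 of the 29 were also highest in the second library, against 30.3% of all genes, over a smaller range (means of 10.09, 10.45 and 10.12). This list too was chosen with earlier results of these data known, so its counts are a description and support nothing. Which passage each number stands for is not given in the sources used here, and what set these libraries apart was not tested.

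**Figure D5:**
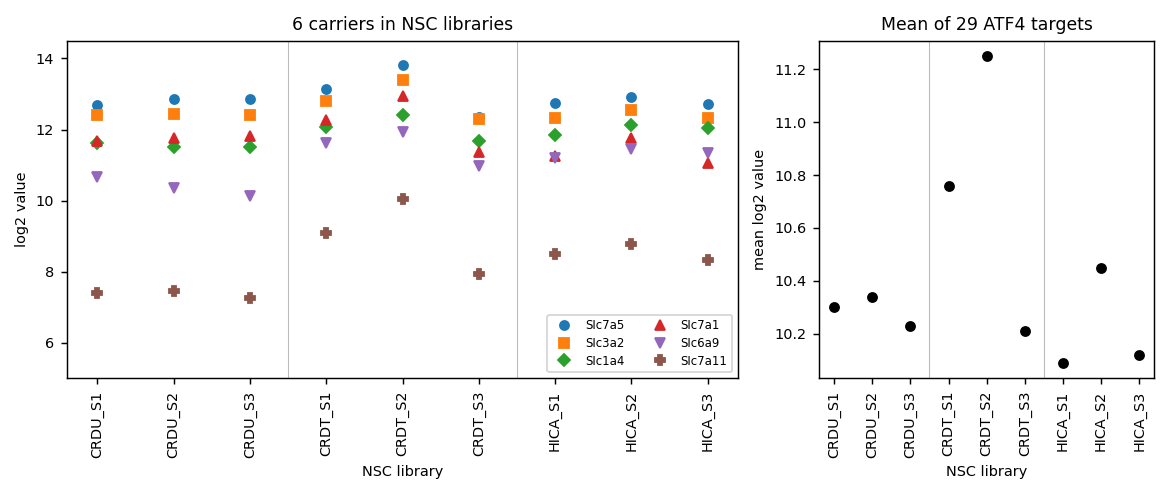
Left, log2 value (vertical axis) of 6 carriers known as ATF4 targets in the 9 NSC libraries (horizontal axis; CRDU, tdTomato; CRDT, EYFP; HICA, hippocampal). Right, the mean log2 value of 29 other ATF4 targets in the same libraries. All 6 carriers and the list mean (11.25) are highest in CRDT_S2, and the carriers and the list are lower in CRDT_S3 than in CRDT_S1.

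Most genes of the same list were lower in astrocytes than in NSCs. Of its 29 genes, 18, 23 and 19 were lower in astrocytes of the tdTomato, EYFP and hippocampal lines and 4, 2 and 4 were higher, with medians of -0.69, -1.22 and -0.46 (limma, BH, over all genes). Of all genes, 38.5%, 37% and 37.3% were lower and 39.9%, 38.2% and 39% higher in the same order. Atf4, which is in the list itself, changed by -1.45, -1.93 and -1.27 (standard error 0.12, limma, BH-adjusted p = 5.5e-09, 1.1e-10 and 3.3e-08), while Cebpb, a partner of ATF4, rose by 1.83, 2.40 and 1.84 (standard error 0.17, limma, BH-adjusted p = 1.3e-08, 3.4e-10 and 1.2e-08). Of the same 6 carriers, Slc7a1, Slc7a5, Slc1a4 and Slc6a9 fell in each line, whereas Slc3a2 and Slc7a11 did not. In tdTomato against EYFP NSCs, the list had 14 lower genes (14.9% of all genes were lower) and no higher one. That count was 3 without the second EYFP NSC library.

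Enzymes that make or use the carried substrates moved in both directions. Of 36 tested enzymes of amino acid metabolism, 15, 14 and 12 were higher in astrocytes of the tdTomato, EYFP and hippocampal lines and 10, 15 and 19 lower, to be read against the shares of all genes given above for each direction and line, as are the next lists. Gatm, which makes the creatine precursor guanidinoacetate, changed by -1.47, -2.27 and -2.19 (standard error 0.08, limma, BH-adjusted p = 7.1e-12, 1.8e-14 and 2.6e-14), in contrast with the rise of the creatine carrier Slc6a8. Bcat1, which transaminates branched-chain amino acids, changed by -4.52, -4.41 and -3.07 (standard error 0.31, limma, BH-adjusted p = 2.1e-10, 3.4e-10 and 4.4e-08), the same direction as the system L carriers Slc7a5 and Slc43a1 and the opposite of Slc7a8 and Slc43a2. Abat, which degrades GABA, rose by 2.61 and 1.87 in the traced lines and by 0.31 in the hippocampal line (standard error 0.08, limma, BH-adjusted p = 7e-15, 7.1e-13 and 0.0028). Gclc, the catalytic subunit for glutathione synthesis, which uses the cysteine that Slc7a11 brings in as cystine, rose by 0.85, 1.22 and 0.78 (standard error 0.08, limma, BH-adjusted p = 1.2e-08, 1e-10 and 4.1e-08). These 4 enzymes were chosen after their values were seen, for their link to a carrier named here. Of 32 genes that report amino acids to mTORC1, all tested, 13, 14 and 16 were higher and 10, 7 and 10 lower in the 3 lines. Of 15 NRF2 targets, a list that contains Slc7a11, 7, 8 and 8 were higher and 6, 2 and 4 lower.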

How the data were processed

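The authors trimmed the reads (Trimmomatic 0.36), aligned them with STAR 2.5.2, estimated gene counts with RSEM 1.3.0 (versions per the submitters' processing notes) and normalised them in DESeq2 1.18.1 under R 3.4.3. The deposited table holds log2 values for 27997 Ensembl genes in 18 libraries, down to -2.15. They have the form of a regularised log, but the transform and the strand setting of the counting are not given in the sources used here, and counts could not be recovered, so depth and counting error are unknown.

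Gene IDs were matched to GENCODE M21 (GRCm38), and members were taken by symbol and protein-coding type. Members and gene lists were chosen with earlier results of these data known. All groups were fitted in one model with limma 3.58.1 (R 4.3.3, group means, moderated variances with a trend) on the log2 values, over the 15448 genes with at least 3.32 in 3 or more libraries. Tests were 2-sided with BH adjustment over all 15448 genes, and a gene was called at an adjusted p under 0.05. The code was tested on simulated data. Values by library are given for the members called in any of 9 contrasts with a log2 difference of at least 1, of which there were 26. One of these, counted in all totals, is not reported here, which leaves 25. Alternatives were a filter at 100 on the linear scale or none, median centring, quantile normalisation, a pseudocount of 10, no variance trend, the groups of each comparison on their own, the longest transcript as gene length, the replicate number as a block, and leaving out each library.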

Additional observations from a re-analysis of the deposited data

Results flagged for a closer look

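For 8 of the carriers described by library, the change from NSC to astrocyte differed between the hippocampal line and the mean of the traced lines by 1 or more (log2), with an interaction at a BH-adjusted p under 0.05 (limma). Above 0 were Slc38a2 at 2.5, Slc7a11 at 1.75, Slc3a1 at 1.33, Slc6a15 at 1.26 and Slc43a3 at 1.14. Slc3a1 reached the minimum level in hippocampal astrocytes only and Slc6a15 in the traced lines only, so these 2 are given as values and support nothing. Below 0 were Slc7a2 at -1.83, Slc43a2 at -1.35 and Slc38a3 at -1.32. Between the tdTomato and EYFP lines, the change of Slc6a9 differed by 1.04. All of these are differences between lines of 1 culture each, and no explanation for them was tested.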

How the results depend on the processing

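The members Slc1a6, Slc3a1 and Slc6a15, which the filter on low values let through by 1 side of a comparison, were left out here. The other members had 77 differences of at least 1 that were called with all libraries. All 77 kept their direction and passed the test in each of the 1983 refits that gave a value. Another 19 refits gave none, because the gene was under the filter in that refit or, for the interaction with the hippocampal line, because the groups compared are all groups. The number of members whose change differed between the tdTomato and EYFP lines was 7, fell to 4 with no filter on low values, and ran from 2 to 12 when 1 library was left out. For tdTomato against EYFP NSCs, 17 of 35 tested members became 11 of 26 with the filter at 100 on the linear scale, and all 11 were among the 17. When 1 library was left out, the count was 12 to 20. What set single libraries apart was not tested. The other 7 counts stayed within 1.5 times their value under every alternative run. Median centring moved the median of all genes in the tdTomato line from 0.015 to 0.101. A block for the replicate number left the counts at 31, 27, 27, 14, 25, 17, 8, 18 and 7. The labels do not say what the number marks, and the samples were not treated as paired: same-numbered libraries of different lines and the same fate had correlations of their deviations from 0.012 to 0.313, with 9 of 18 pairs over 0.1, and those of 1 line and different fates a mean of -0.023 (9 pairs). Of the 14 members that differed between hippocampal and traced NSCs, 13 were called under the block as well. Precision is limited by 3 libraries a group and by an unknown depth.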
